A study of Mus musculus with 40 samples.

Results

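High-numbered miRNA entries are mature mouse miRNAs whose number in the miRBase catalogue is 5000 or more. Of the 1894 entries in the deposited table, 785 have such a number and 615 of these had a count in any library. The 74 described here are those whose counts, summed over all 40 libraries, reached 20. That total chose the entries, so it is given as a description only. It was reached by 9.427% of the entries of number 5000 or more, against 65.3% of those numbered under 1000, 40% of those from 1000 to under 2000 and 33.96% of those from 2000 to under 5000. Just inside the threshold were miR-6715-5p with 20 counts, miR-7225-5p with 21.75 and miR-6994-3p with 22, and just outside were miR-7052-3p with 18.25, miR-6930-5p with 17.75 and miR-6971-3p with 17.45.

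The libraries hold small RNA of brown fat, liver, gastrocnemius muscle and hypothalamus from 10 male mice of 8 to 12 weeks, in 8 groups of 5. The mice were UCP1;UPRT animals, the cross of a Ucp1-cre strain with a strain whose CAG-driven transgene codes for UPRT after Cre has acted. UPRT converts injected 4-thiouracil (4TU) to a nucleotide that enters new RNA in the place of uridine, and the Ucp1 promoter drives Cre in brown fat. All groups received 4TU by the intraperitoneal route at 50 mg/kg, 4 times, 48 h apart. For each tissue, 5 libraries were made from total RNA (input) and 5 from the RNA that streptavidin beads retained once thiol-containing RNA carried biotin (IP). The labels name no group without 4TU or without Cre, and do not give the genotype of each mouse. By the library names every input belongs to pool 1 and every IP to pool 2, hence pull-down and pool cannot be told apart, nor can thiol-labelled RNA and RNA that the beads held for another reason.

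A canonical miRNA is cut by Drosha from the stem of a hairpin transcript and then by Dicer, and guides an Argonaute protein to targets that pair with its seed, bases 2 to 8. A mirtron is a short intron that the spliceosome releases and that folds into a Dicer substrate, so its 3p product ends where the intron ends. miRBase numbers follow the order of discovery. The highest numbers come mostly from deep sequencing, and many of these entries rest on few reads or overlap other kinds of RNA.

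Sequences from RefSeq (GRCm38.p6, the build of mm10) were found for 64 of the 74 entries by name. The 14 of highest mean level that have a sequence are printed because the results below turn on them. Capitals mark the seed. In the 3 entries that end at the last base of an intron, capitals also mark the final AG, the letters of the splice acceptor.
miR-6236: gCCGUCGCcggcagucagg
miR-5119: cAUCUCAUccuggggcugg
miR-6538: cGCGGGCUccggggcggcg
miR-5126: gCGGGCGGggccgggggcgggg
miR-8114: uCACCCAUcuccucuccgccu
miR-5100: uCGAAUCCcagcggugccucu
miR-5121: aGCUUGUGaugagacaucucc
miR-6978-3p: aCGGCUUCacucucacccugcAG
miR-6239: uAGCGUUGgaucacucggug
miR-6988-3p: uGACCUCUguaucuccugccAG
miR-8103: uCUCCUGUucucuguucuccc
miR-6944-3p: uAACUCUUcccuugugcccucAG
miR-7080-5p: gUAGGAGCuggagguggguuugg
miR-6240: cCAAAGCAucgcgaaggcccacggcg
No pair of these shares a seed, and the 64 entries with a sequence have 64 different seeds. Among the other entries with 20 counts or more, miR-455-5p has the seed of miR-5129-3p (AUGUGCC) and miR-330-3p that of miR-6240 (CAAAGCA). miR-5126 is made of G and C alone and holds 0 U. miR-6538 and miR-6240 hold 1 U each, miR-6236 holds 2 and miR-5119 holds 5.

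In GENCODE, miR-6236 (chr9:110281353-110281371, plus strand), miR-5126 (chr1:84695890-84695911, plus strand), miR-6239 (chr14:117953768-117953787, minus strand) and miR-6240 (chr5:114851973-114851998, plus strand) lie in no annotated gene other than their own. miR-5119 (chr11:98262638-98262656, plus strand) lies in an intron of Cdk12, a kinase of transcription elongation. miR-6538 (chr12:26414970-26414988, minus strand) is in an intron of Rnf144a and miR-5100 (chr11:60728698-60728718, plus strand) in an intron of Mief2, a mitochondrial fission factor. miR-8103 (chr11:97063829-97063849, plus strand) is in an intron of Osbpl7. miR-8114 (chr1:153899989-153900009, plus strand) is part of an untranslated exon of Glul, which codes for glutamine synthetase. miR-5121 (chr7:45126925-45126945, minus strand) lies inside the snoRNA Snord33 in the ribosomal protein gene Rpl13a, and both arms of miR-6516 lie inside a small Cajal body RNA in Snhg20. In all, 21 of the 64 sequences occur letter for letter in a GENCODE transcript that is not a miRNA, so a read of these cannot be assigned to a miRNA by its sequence. RNA kinds that this annotation lacks were not searched. For the rest, the search therefore does not show that a read comes from a miRNA.

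The entries made up 0.0286% of all input counts and 0.111% of all IP counts. Input libraries held 153036 to 5562487 counts and IP libraries 11928 to 921297. The tissue markers fixed for the check (such as miR-122-5p for liver and miR-1a-3p for muscle) made up 20.4% to 34.1% of counts in the hypothalamus inputs, 63.1% to 65.4% in the muscle inputs, 45.3% to 52.2% in the liver inputs and 9.48% to 13.4% in the brown fat inputs. Muscle markers also made up 6.91% to 29.3% of the brown fat inputs and 18.9% of hypothalamus input 4, which has the fewest counts of all inputs, 153036, and also held 2.29% liver markers; each of the other hypothalamus inputs held at most 0.256% muscle markers. The main results on hypothalamus are also given without that input. In liver, muscle and hypothalamus the IP of lowest depth (liver IP 4 with 11928 counts, muscle IP 5 with 109978, hypothalamus IP 4 with 67819) also had the highest summed level of the entries. In the IPs the share of these markers moved: liver markers were 73.1% to 82.2% of the liver IPs, muscle markers 48.6% to 61.7% of the muscle IPs, hypothalamus markers 6.28% to 23.5% of the hypothalamus IPs, and brown fat and muscle markers 7.90% to 17.4% and 5.06% to 25.7% of the brown fat IPs. Endothelial markers had lower shares in the IPs of all 4 tissues. They were 2.38% to 5.71% of the brown fat inputs and 0.155% to 0.303% of the brown fat IPs. For liver they were 0.410% to 0.665% and 0.00934% to 0.0436%. For muscle they were 0.365% to 0.554% and 0.00712% to 0.0504%, and for hypothalamus 0.231% to 0.663% and 0.00448% to 0.0297%. The part of these shifts in the IP changes below was not tested.

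Counts were few and unevenly spread. miR-5099 held 38.8% of the counts of the 74 entries, miR-6236 13.1%, miR-6540-5p 7.81% and miR-5121 6.83%, and 82.2% of the miR-5121 counts came from hypothalamus input 5 alone. Of the 74, 43 are 3p arms, 12 are 5p arms and 19 have no arm in their name. The heat map of 21 entries by library shows that miR-5099 was present in every library. miR-6540-5p and miR-6944-3p had their highest levels in the hypothalamus columns, and miR-7080-5p in those of the hypothalamus IPs.

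**Figure D1:**
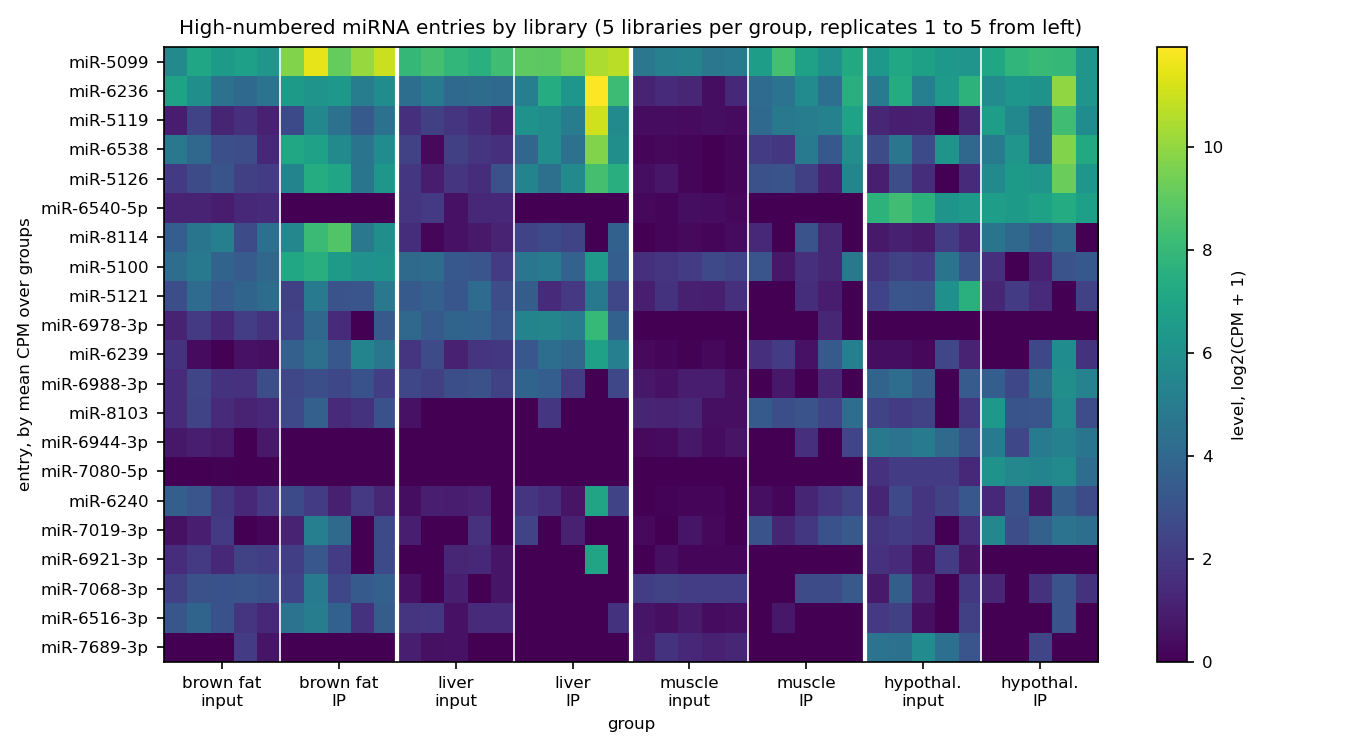
Level of 21 high-numbered entries (vertical axis, by mean CPM over groups) in the 40 libraries (horizontal axis, 5 per group), coloured by log2(CPM + 1), where CPM is the count per 1000000 counts of the library. miR-5099 is present in all libraries, and liver IP 4, the fourth column of its group, is brighter than its neighbours for miR-6236, miR-5119 and miR-6538.

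Summed over the 74 entries, the brown fat inputs held 231 to 427 CPM and the brown fat IPs 1415 to 4161 (CPM is the count scaled to a library total of 1000000). Liver inputs held 322 to 463 CPM and liver IPs 781 to 9425 (up to 2322 without liver IP 4). Muscle inputs held 53.0 to 73.0 CPM and muscle IPs 185 to 678 (up to 417 without muscle IP 5). Hypothalamus inputs held 518 to 933 CPM and hypothalamus IPs 743 to 3536 (up to 905 without hypothalamus IP 4). In brown fat, liver and muscle every IP was above every input of the tissue. In hypothalamus the IPs and inputs overlapped. These sums follow a few entries. Without the 10 of highest mean CPM, the other 64 had overlapping sums in all 4 tissues. Their median was 92.9 CPM in the inputs and 150 in the IPs for brown fat. It was 26.7 and 49.8 for muscle, and 244 and 290 for hypothalamus. For liver it was 53.6 in the inputs and 47.2 in the IPs, where 39 of the 64 had 0 counts. The entries are therefore described singly.

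Only entries with enough counts could be tested. In the IP comparison the filter kept 7 of the 74 entries for brown fat, 5 for liver, 4 for muscle and 4 for hypothalamus. Several passed only because the IP was high: miR-5126 exceeded the filter's CPM in 0 of 5 inputs and 5 of 5 IPs in brown fat, liver and hypothalamus, and so did miR-5119 and miR-6538 in liver and miR-5119, miR-6236 and miR-8103 in muscle. An entry that passes this way had to come out higher, so its p-value is no support for a rise. The number of higher entries is likewise not support for a rule about them. Only miR-5099 passed in both arms in all tissues. Adjusted p-values are from edgeR's quasi-likelihood test over all entries tested, with Benjamini-Hochberg adjustment.

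miR-5099 was higher in the IP of each tissue. In brown fat its inputs held 51.6, 132.7, 91.0, 104 and 74.0 CPM (replicates 1 to 5) and its IPs 813, 2883, 557, 1080 and 2031. The groups did not overlap, and the log2 fold change (log2FC) was 5.02 (SE 0.38, adjusted p = 8.34e-09, edgeR). In liver the inputs held 245, 340, 241, 189 and 311 CPM and the IPs 499, 491, 701, 1415 and 1638, again without overlap. The log2FC there was 3.22 (SE 0.45, adjusted p = 6.52e-07, edgeR), 1.80 with total count as the only scaling, and 2.39 to 2.56 in the 5 fits that each lacked 1 liver input. Over all fits that left out a library it ran from 2.39 to 3.38. In muscle the inputs held 25.6, 35.5, 38.9, 25.6 and 28.2 CPM and the IPs 103, 328, 114, 64.7 and 149, a log2FC of 3.39 (SE 0.48, adjusted p = 6.49e-07, edgeR) with no overlap, or 2.55 without muscle IP 2 and 3.52 without muscle IP 5. In hypothalamus the inputs held 80.4, 137, 108, 82.1 and 72.5 CPM and the IPs 128, 228, 273, 247 and 74.6, and the ranges overlapped. Its log2FC of 1.68 (SE 0.38, adjusted p = 0.00161, edgeR) fell to 0.96 with total count scaling (adjusted p = 0.0699) and to 0.98 without the filter (adjusted p = 0.0794), and neither passed the threshold. It was 1.69 without hypothalamus input 4 and 1.75 without hypothalamus IP 4.

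miR-6236 rose in the IP of brown fat, liver and muscle, least in brown fat. The brown fat inputs held 121, 60.5, 20.6, 15.9 and 22.05 CPM and the IPs 90.1, 71.3, 81.8, 31.4 and 55.5; input 1 was above all 5 IPs. The log2FC of 1.47 (SE 0.57, adjusted p = 0.0261, edgeR) was 2.55 without brown fat input 1, and it missed the threshold with RLE, total count, DESeq2 and the fit on all 40 libraries (0.49 to 1.32, adjusted p from 0.0638 to 0.393) and without any of inputs 3, 4 and 5 or IPs 1 and 3 (1.20 to 1.35). In muscle the inputs held 1.20, 1.78, 1.42, 0.353 and 1.52 CPM and the IPs 17.2, 22.3, 53.4, 19.5 and 180. These did not overlap, and the log2FC was 5.69 (SE 0.40, adjusted p = 9.15e-12, edgeR), or 5.45 without muscle IP 5. The entry was tested in muscle only through its IP level, so this p-value is no support. In liver the inputs held 16.1 to 28.03 CPM and the IPs 34.8, 166, 76.2, 3912 and 292, a log2FC of 5.44 (SE 0.60), or 4.67 without liver IP 4. In hypothalamus the inputs held 29.1, 164, 34.5, 85.3 and 212 CPM and the IPs 52.3, 76.8, 69.6, 977 and 73.9, which overlap. The value of 1.38 (SE 0.84, adjusted p = 0.153, edgeR) was 0.12 without hypothalamus IP 4, 2.30 without hypothalamus input 5 (adjusted p = 0.0349) and 1.28 with the mouse as a replicate block (adjusted p = 0.0437).

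miR-5119 was low in every input and present in every IP. In muscle the inputs held 0.267 to 0.370 CPM and the IPs 15.9, 26.9, 32.8, 36.8 and 121. Its log2 fold change in muscle was 7.48 (SE 0.38, adjusted p = 3.97e-14, edgeR), or 7.39 without muscle IP 5, from 6 input counts and 72 IP counts. As it was tested there only through its IP level, this p-value is no support. The ratio of the pooled levels in muscle after TMM scaling was 214-fold (95% interval 93.7 to 602, exact, counting error only). In liver the inputs held 0.959 to 3.76 CPM and the IPs 68.3, 56.6, 32.1, 2140 and 51.0, a log2FC of 7.10 (SE 0.65), or 6.16 without liver IP 4 and 6.46 without liver input 5. In brown fat its inputs held 0.905 to 4.47 CPM and its IPs 5.47, 45.8, 20.9, 9.497 and 21.1, and it was below the filter there. In hypothalamus the inputs held 0 to 1.45 CPM and the IPs 103, 46.4, 17.4, 308 and 54.9, also below the filter. IPs and inputs did not overlap in any of the 4 tissues.

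miR-5126, the entry with no U, was also higher in IPs. In brown fat the inputs held 3.12, 5.87, 7.57, 3.81 and 3.35 CPM and the IPs 41.0, 168, 129, 24.2 and 79.4. The log2FC was 5.18 (SE 0.48, adjusted p = 5.51e-08, edgeR), and it was 6.38 in liver (SE 0.53) and 6.65 in hypothalamus (SE 0.76). Since miR-5126 passed the filter only through its IPs in each of these tissues, the p-value is no support. The liver value was 6.38 without liver IP 4, but 5.27 to 5.61 without any of liver inputs 1 to 4 and 5.69 without liver IP 5. The hypothalamus value was 5.89 without hypothalamus IP 4 and 6.56 without hypothalamus input 4. In hypothalamus the inputs held 0 to 6.10 CPM and the IPs 49.8, 89.9, 74.0, 587 and 76.8. The IPs lay above all inputs in these 3 tissues and in muscle, where the inputs held 0 to 0.629 CPM and the IPs 1.12 to 43.5 and where no test was made.

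miR-6538, 94.74% G and C, was higher in the IPs of brown fat and liver. The brown fat inputs held 26.2, 15.6, 6.56, 5.997 and 1.57 CPM and the IPs 136, 113, 52.1, 23.5 and 54.8, which overlap by IP 4 alone. Its log2FC was 3.73 (SE 0.62, adjusted p = 3.31e-05, edgeR), or 4.75 without brown fat input 1, and 3.26 at the lowest over the fits without a library. In liver the inputs held 0.239 to 4.19 CPM and the IPs 14.3, 57.6, 21.3, 815 and 59.1. The log2FC there was 5.96 (SE 0.60), or 5.54 without liver IP 4. In muscle and hypothalamus it was below the filter. The ratio of its pooled levels after TMM scaling was 214-fold in muscle, from 24 IP and 2 input counts. The 95% interval of that ratio was 53.1 to 1868 (exact, counting error only). In hypothalamus the ratio was 14.5-fold (11.1 to 18.9), from 103 and 136 counts, with 804 CPM in hypothalamus IP 4 (next 149).

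**Figure D2:**
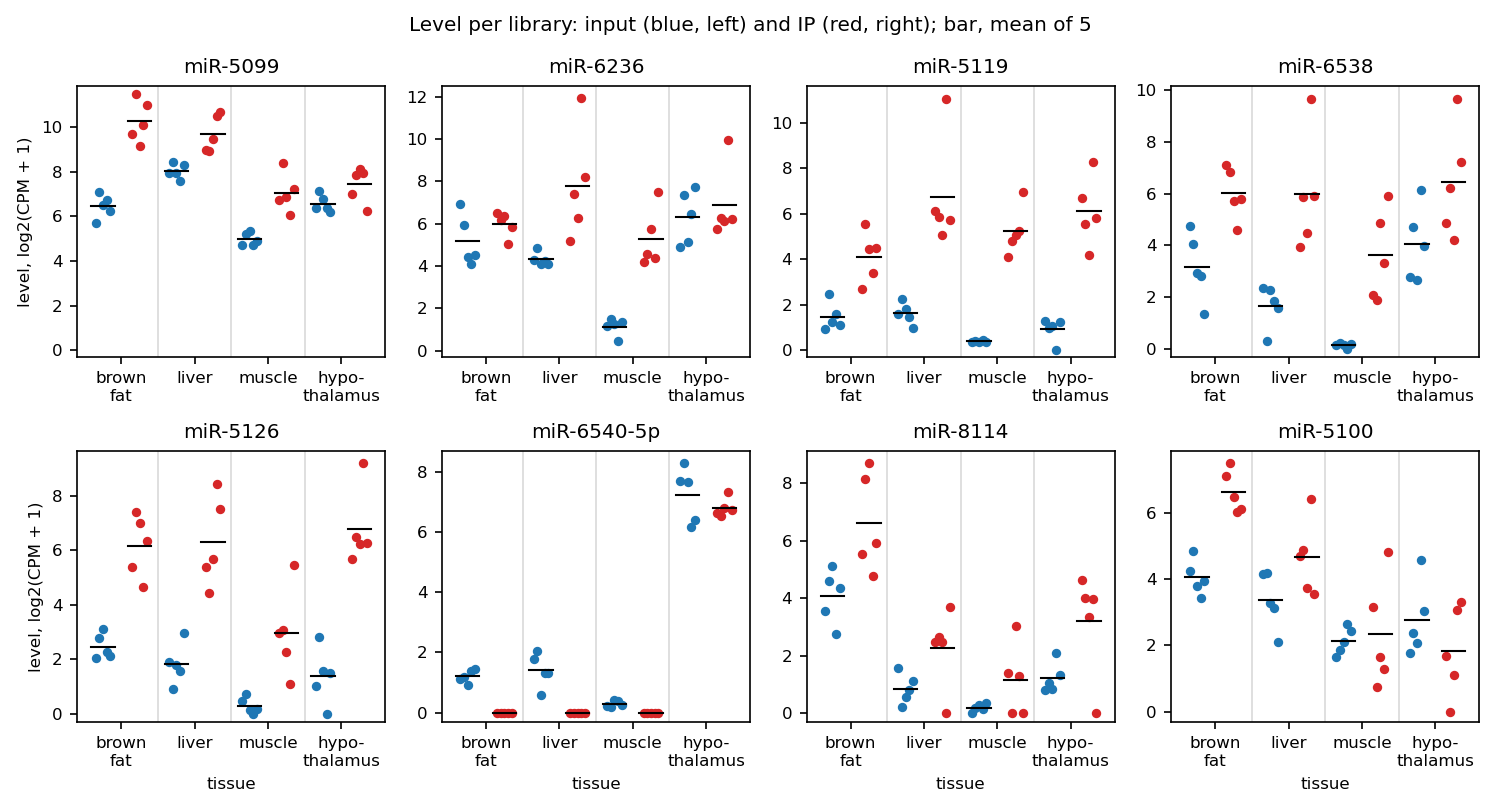
Level of 8 entries in each library as log2(CPM + 1) (vertical axes) by tissue (horizontal axes), with inputs in blue, IPs in red and the mean of 5 as a bar. miR-5119 and miR-5126 have every IP above every input of the same tissue, and miR-6540-5p is at 0 in the 15 IPs outside hypothalamus.

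In brown fat, 3 further entries passed the filter, and all 7 tested were higher (36.7% of the 305 entries tested were higher in this comparison). miR-8114, from the Glul exon, held 10.8, 23.5, 34.2, 5.79 and 19.3 CPM in the inputs and 45.4, 282, 415, 26.1 and 59.6 in the IPs, a log2FC of 4.23 (SE 0.69, adjusted p = 2.68e-05, edgeR), or 3.31 without brown fat IP 3. Its brown fat IP 4 lay below input 3 and above the rest. In the other tissues it was below the filter. Its pooled levels there were also higher in the IPs after TMM scaling, from few counts. The ratio was 24.5-fold in liver (6 IP and 4 input counts), 23.8-fold in muscle (4 and 3) and 15.95-fold in hypothalamus (10 and 12). miR-5100 held 18.1, 27.8, 12.7, 9.80 and 14.5 CPM in the inputs and 136, 180, 88.7, 64.0 and 68.0 in the IPs, without overlap, a log2FC of 3.76 (SE 0.38). miR-5121, the Snord33 sequence, held 6.26 to 17.4 CPM in the inputs and 3.84, 29.5, 7.22, 7.93 and 26.4 in the IPs. These overlap, and its log2FC of 1.26 (SE 0.42, adjusted p = 0.0122, edgeR) was 0.85 with the mouse as a replicate block (adjusted p = 0.135) and 0.82 without brown fat IP 5 (adjusted p = 0.125). It also missed the threshold with RLE, total count, no filter, DESeq2 and all 40 libraries (adjusted p from 0.0656 to 0.768).

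In liver the 5 entries tested were higher (28.5% of 200 were), and in muscle the 4 tested were (28.7% of 268), among them miR-8103, which held 0.391 to 1.44 CPM in the inputs and 9.498, 6.21, 7.20, 4.29 and 18.2 in the IPs. Its log2FC was 3.92 (SE 0.49, adjusted p = 9.69e-08, edgeR), or 3.29 without muscle IP 1 and 3.93 without muscle IP 5. This p-value is no support, as miR-8103 was tested only through its IP level. In hypothalamus 2 of the 4 tested were higher (28.2% of 273). No tested entry had an estimate below 0 in these 4 comparisons, in which 43.3%, 46%, 56.3% and 47.3% of all entries tested (for brown fat, liver, muscle and hypothalamus) were lower. The median log2FC of the entries tested for the tissues in the same order was 3.76, 5.96, 4.80 and 1.53, beside -0.34, -0.78, -1.41 and -1.04 over all entries tested; as the filter let several in through their IP level, these medians describe the entries tested and not the 74. The plot of IP changes shows these entries to the right of the middle range of all entries, apart from miR-6236 and miR-6540-5p in hypothalamus and miR-5121 in brown fat.

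**Figure D3:**
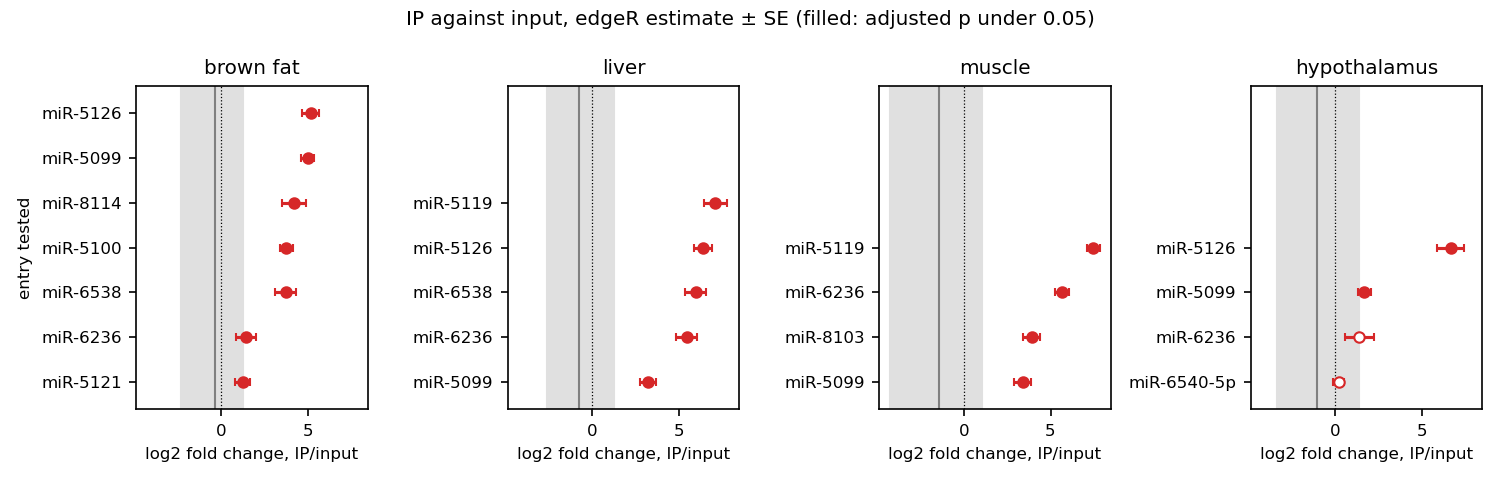
Log2 fold change of IP over input (horizontal axes) with its SE for each high-numbered entry tested (vertical axes), by tissue; filled points passed an adjusted p of 0.05, the grey band is the middle 50% of all entries tested and the grey line their median. miR-5119 and miR-5126 lie at 5.18 or more wherever they were tested, and miR-6540-5p lies at 0.20.

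miR-6540-5p differed from these. Its hairpin lies in an intron of Gap43, a growth cone gene of neurons, by the position of its 3p arm. The hypothalamus inputs held 207, 311, 204, 70.2 and 84.1 CPM and the hypothalamus IPs 98.9, 90.8, 111, 161 and 105. The ranges overlap, and the change of 0.20 (SE 0.32, adjusted p = 0.571, edgeR) did not pass the test; it was 0.03 without hypothalamus input 4 and ran from -0.66 with total count scaling to 0.41 with a minimum mean of 10 CPM. Outside hypothalamus its inputs held 0.128 to 3.10 CPM and all 15 IPs were at 0. The depth there gives little to compare with: at the brown fat inputs' level, only 2.82 counts would be expected in the 5 brown fat IPs together by total count.

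Some entries below the filter had IPs apart from the inputs, or few counts in the IP. miR-7080-5p, which starts at the first base of an intron of Cpne7, was seen in hypothalamus and almost nowhere else, with 2.26, 3.34, 3.24, 3.27 and 1.63 CPM in the inputs and 67.7, 44.8, 41.0, 50.4 and 18.0 in the IPs, without overlap. Its 36 IP counts against 21 input counts give a ratio of 32.8-fold after TMM scaling (95% interval 18.6 to 59.2, exact, counting error only) and 19.8-fold by total count. miR-6239 held 0.0546 to 2.38 CPM in the brown fat inputs and 8.34 to 41.0 in the IPs, with 7 and 37 counts. miR-7689-3p went the other way in hypothalamus. Its inputs held 22.2, 21.2, 53.0, 19.6 and 7.90 CPM and 4 of its 5 IPs were at 0. Its single IP count against 167 input counts is a level 8.72-fold lower after TMM scaling, with an interval of 1.54 to 347. miR-5121 was lower in the hypothalamus IPs too, with 2 counts against 1106 in the inputs. That is a level 28.9-fold lower after TMM scaling, with an interval of 7.98 to 239. However, 1072 of its input counts came from hypothalamus input 5 alone.

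Base composition was set beside the IP change over all entries tested that have a sequence. Spearman's correlation of the number of U with the log2FC was 0.05 for brown fat, 0.15 for liver, 0.12 for muscle and -0.04 for hypothalamus (266, 168, 231 and 238 entries). With the percentage of G and C it was 0.39, 0.40, 0.35 and 0.43. These are descriptions across entries that share libraries and depth. The miR-5126, miR-6538 and miR-6236 sequences, at 100%, 94.74% and 78.95% G and C, stood at the upper end of that range. Of the entries with 3 U or fewer, 8 of 14 were higher and 1 lower in hypothalamus, 3 of 10 and 3 in muscle, 5 of 9 and 2 in liver, and 6 of 15 and 4 in brown fat. Of those with 9 U or more, 11 of 33 were higher and 11 lower in hypothalamus, 16 of 38 and 16 in muscle, 11 of 22 and 5 in liver, and 18 of 38 and 12 in brown fat. Of all entries tested, 28.2% were higher and 47.3% lower in hypothalamus, and 28.7% and 56.3% in muscle. The shares were 28.5% and 46% in liver, and 36.7% and 43.3% in brown fat. The entries with 3 U or fewer include miR-5126, miR-6538 and miR-6236 wherever these were tested. Some of those passed the filter only through their IP level and had to come out higher, so the counts are a description only. What part composition plays in these changes was not tested.

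**Figure D4:**
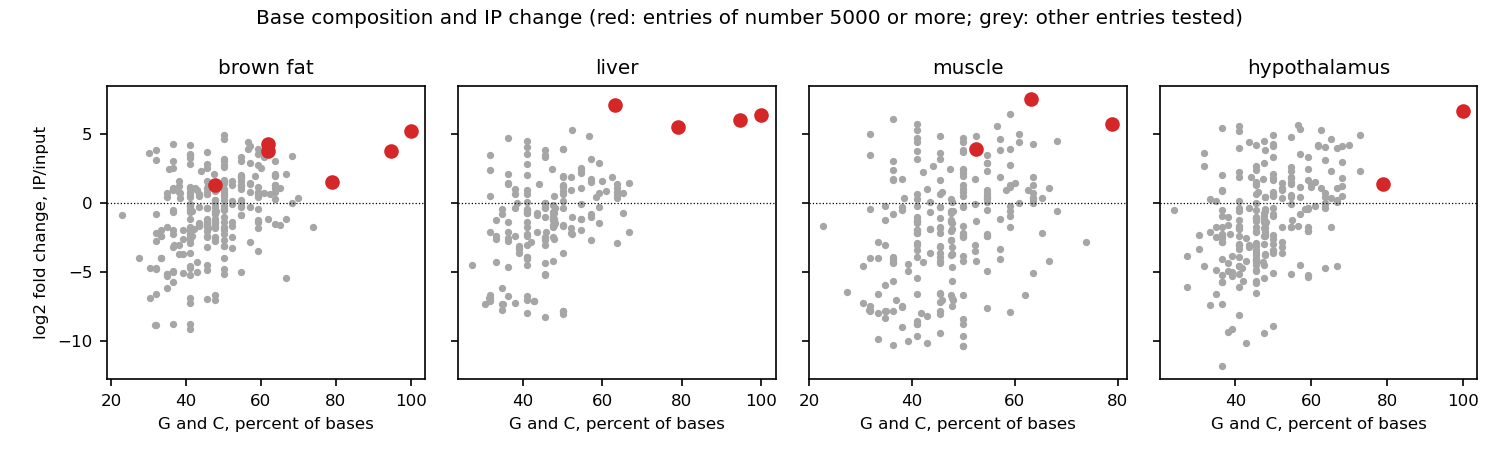
Log2 fold change of IP over input (vertical axis) against the percentage of G and C (horizontal axes) for each entry tested with a sequence, by tissue; high-numbered entries are red and all others grey. The rightmost red point at 100% is miR-5126, present in the panels of brown fat, liver and hypothalamus.

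The IP changes of the tissues were compared with that of brown fat as an interaction. The comparisons share the brown fat libraries. Between liver and brown fat, miR-6236 rose more in liver by a log2 difference of 3.55 (SE 0.86, adjusted p = 0.018, edgeR), and miR-5099 rose more in brown fat, a difference of -2.23 (SE 0.53, adjusted p = 0.0177). Of all entries tested, 0.325% were higher and 8.12% lower. The miR-5099 difference was -1.77 with RLE scaling (adjusted p = 0.0683) and lost its call in 12 of the 20 fits that left out a library (-1.91 to -1.57), and that of miR-6236 in 5 of them (3.19 to 4.34); over all 20 fits the miR-6236 value ran from 3.19 to 4.64. Those 5 were the fits without brown fat input 1, liver input 5, brown fat IP 2 or 4, or liver IP 4.

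Between muscle and brown fat, 3 of 10 entries were higher (8.33% of all) and 1 lower (12.7% of all). miR-6236 differed by 4.63 (SE 0.82, adjusted p = 0.000495, edgeR), miR-6538 by 4.52 (SE 1.31) and miR-5119 by 3.63 (SE 0.71, adjusted p = 0.00136). All 3 exceeded the filter's CPM in 0 of 5 muscle inputs. miR-5119 did so in 0 of 5 brown fat inputs as well, and was tested only through 5 muscle IPs and 3 brown fat IPs. The calls held under the 6 alternatives run on this comparison and in each fit without a library, which is no support where an entry is tested only through its IP level. Without brown fat input 1 the values were 3.58 for miR-6236 and 3.42 for miR-6538, and without muscle input 2 that of miR-6538 was 5.48. miR-5100 rose less in muscle, by -2.08 (SE 0.72, adjusted p = 0.0426), but this was -1.95 with RLE (adjusted p = 0.0578) and missed the threshold without any of muscle inputs 3, 4 and 5 or muscle IPs 2, 3 and 4 (-2.12 to -1.79); it was -3.19 without muscle IP 1.

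Between hypothalamus and brown fat, 4 of 12 entries were called higher (32.2% of all) and 1 lower (2.13% of all), and the calls depend on the scaling. The median over all entries tested was 1.30 and moved by -1.08 with RLE and by -1.45 with total count. miR-5119 differed by 4.32 (SE 0.90, adjusted p = 0.000994, edgeR), by 2.97 with total count (adjusted p = 0.0722) and by 0.42 to 1.40 in the 17 fits without a library that lost the call. The miR-5126 difference of 3.33 (SE 0.89, adjusted p = 0.00821) was 2.20 with RLE (adjusted p = 0.107), and turned negative (-0.77 to -0.02) in 13 of the 20 fits without a library. miR-5099 differed by -1.44 (SE 0.53, adjusted p = 0.041), by -1.13 with the mouse as a replicate block (adjusted p = 0.11), by -1.57 without the filter (adjusted p = 0.13) and by -1.42 without brown fat input 4 (adjusted p = 0.0575). In 17 of the 20 fits without a library it was far larger, -5.25 to -4.53, so its size is not settled by these libraries. miR-6944-3p and miR-6540-5p were called too (adjusted p = 0.0388 and 0.0383), but both had 0 counts in all 5 brown fat IPs, and with the replicate block their adjusted p was 0.071 and 0.133, and 18 of the 20 fits without a library lost each call. Their fitted sizes depend on the prior count and are no bound.

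The inputs show where the entries are found. By mean CPM, 43 of the 74 were highest in hypothalamus, 21 in brown fat, 8 in liver and 2 in muscle. Without hypothalamus input 4 these were 44, 20, 8 and 2. The same count over all entries of the deposited table was not made, so these numbers are no trait of the 74. The entries were chosen by counts summed over all libraries, and hypothalamus input 5 was the deepest library, with 5562487 counts. What part this choice plays in the numbers was not tested. CPM are shares of a library, and the marker miRNAs alone took the shares of liver and muscle given above, so the tests below use TMM scaling. In these bulk samples, fewer cells that make an entry and less of it per cell cannot be told apart. Only 8 of the 74 passed the filter over the inputs. For each tissue they were tested against the mean of the other 3.

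In hypothalamus 5 of the 8 were higher (50.7% of the 444 entries tested were) and 2 lower (34%). miR-6540-5p was higher by 6.06 (SE 0.30, adjusted p = 3.48e-14, edgeR), or 6.22 without hypothalamus input 4. miR-7689-3p was higher by 3.45 (SE 0.47), 3.46 without that input and 4.35 without liver input 1. Both exceeded the filter's CPM in 5 of 5 hypothalamus inputs and 0 of 5 of each other tissue, so they were tested only through their hypothalamus level and had to come out higher there. miR-6538 was higher by 2.26 (SE 0.76, adjusted p = 0.00941; 1.82 without hypothalamus input 4). miR-6236 was higher by 1.90 (SE 0.51, adjusted p = 0.00182; 1.96 without hypothalamus input 4; 1.15 with adjusted p = 0.0532 without hypothalamus input 5). miR-5121 was higher by 2.18 (SE 0.61), but its 192.8 CPM in hypothalamus input 5 and 63.2 in input 4 stand against 4.34 to 7.88 in the other inputs; without input 5 the value was -0.65, without input 4 it was 2.16, and with the replicate block 0.95 (adjusted p = 0.287). miR-5100 was lower (log2FC -2, SE 0.48), by -2.25 without hypothalamus input 4 and -2.59 without input 5, but by -0.58 with total count scaling, which lost the call (adjusted p = 0.225). miR-5099 was lower by -1.46 (SE 0.22), the same without hypothalamus input 4, and turned to 0.10 with total count scaling (adjusted p = 0.667).

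In liver, 2 of the 8 were higher (22.7% of all) and 1 lower (39%). miR-5099 was higher by 2.75 (SE 0.18, adjusted p = 5.24e-11, edgeR), its 189 to 340 CPM lying above every input of the other tissues. miR-5100 was higher by 1.35 (SE 0.43, adjusted p = 0.00958), or 0.67 with total count scaling (adjusted p = 0.134), 1.26 with the replicate block (adjusted p = 0.132) and 1.09 without liver input 1 (adjusted p = 0.0547). miR-7689-3p was tested only through its hypothalamus level, which is part of the mean compared with, so its lower call here is no separate support. It was lower by -2.92 (SE 1.08, adjusted p = 0.0235, edgeR), from 2 counts in all liver inputs, and by -1.66 with the block (adjusted p = 0.355). The threshold was missed as well when brown fat input 4 or any of liver inputs 2 to 5 was left out (-2.67 to -2.33), and the value was -5.59 without liver input 1.

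In brown fat, miR-6538 was higher by 2.08 (SE 0.74, adjusted p = 0.0188, edgeR; 30.6% of all entries were higher), or 2.83 with the replicate block (adjusted p = 0.076) and 1.11 without brown fat input 1 (adjusted p = 0.199). miR-6540-5p was lower by -2.86 (SE 0.49) and miR-5099 by -1.08 (SE 0.21), where 34.7% of all were lower. With total count the miR-5099 value was -0.03. The hypothalamus level, through which alone miR-6540-5p was tested, is part of the mean compared with. The lower calls of miR-6540-5p in brown fat and in muscle are therefore no separate support. In muscle, 4 of the 8 were lower (38.3% of all) and 1 higher (22.3%). miR-6538 was lower by -5.09 (SE 1.29, adjusted p = 0.00194, edgeR; -6.75 without muscle input 2), miR-6236 by -3.45 (SE 0.73, adjusted p = 0.000362) and miR-6540-5p by -2.68 (SE 0.52). miR-5121 was lower by -1.95 (SE 0.80, adjusted p = 0.0409), -2.01 with the block (adjusted p = 0.106) and -1.01 without hypothalamus input 5, and its call was lost in 9 of the fits without a library. miR-7689-3p was higher by 1.59 (SE 0.57, adjusted p = 0.0208, edgeR), but by -0.28 with total count (adjusted p = 0.841) and 2.48 without liver input 1. Without muscle input 2 or 3 it no longer passed the threshold (adjusted p = 0.063 and 0.0509). It too was tested only through its hypothalamus level and exceeded the filter's CPM in 0 of 5 muscle inputs.

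The entries differ from lower-numbered ones in where they lie. The mature 3′ end fell within 3 bases of the 3′ end of an annotated intron in 28 of the 64 entries with a sequence (43.75%). The share was 24.72% among the 623 entries of number 5000 or more under 20 counts, and 2.478% among the 565 of lower number with 20 counts or more. All 28 are 3p arms, 24 end at the last base of the intron and 24 end in AG. The sets were defined by number and counts, so these shares are a description of the annotation. The rest lay elsewhere in introns, in exons, as with miR-5114 in the coding exon of the fatty acid desaturase gene Scd2, in small nucleolar or Cajal body RNAs, or in no gene.

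The 3 intron-end entries of highest mean level that have a sequence lie in C3, Dbn1 and Syvn1. miR-6978-3p ends an intron of C3 (chr17:57217172-57217194, minus strand), the complement component made mainly in liver. It held 14.7, 9.29, 13.2, 12.6 and 7.70 CPM in the liver inputs and 40.8, 42.7, 31.0, 252 and 12.0 in the liver IPs, 1.18 to 3.54 in the brown fat inputs and 0 in all inputs of muscle and hypothalamus. The 5 liver inputs were above every other input. miR-6944-3p ends an intron of Dbn1 (chr13:55477681-55477703, minus strand), which codes for drebrin, an actin-binding protein of dendritic spines. It held 27.5, 22.2, 28.3, 16.3 and 7.64 CPM in the hypothalamus inputs, 30.5, 4.98, 27.8, 36.9 and 23.9 in the hypothalamus IPs, and at most 1.03 in any input of another tissue. miR-6988-3p, at the end of an intron of Syvn1 (chr19:6051371-6051392, plus strand), a ubiquitin ligase of the endoplasmic reticulum, was spread more widely, with 0 to 18.2 CPM in the hypothalamus inputs, 3.76 to 6.66 in those of liver, 1.65 to 6.23 in those of brown fat and 0.400 to 0.952 in those of muscle.

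Of the 28 intron-end entries, 20 were highest in the hypothalamus inputs, 5 in brown fat, 2 in muscle and 1 in liver. Without hypothalamus input 4 these were 21, 4, 2 and 1. Of all 74 entries, 43 were highest in hypothalamus. The share over all entries of the deposited table was not counted, so these numbers are no trait of intron-end entries or of the 74. The summed level of the 28 had a median of 134 CPM in the hypothalamus inputs and 127 in the hypothalamus IPs. For brown fat the medians were 34.6 and 61.6, for liver 31.4 and 56.0, and for muscle 15.1 and 27.3. Inputs and IPs overlapped in each tissue. The other 36 entries with a sequence had medians of 303 CPM in the hypothalamus inputs and 427 in the IPs, 143 and 558 for brown fat, 71.6 and 370 for liver, and 17.1 and 87.8 for muscle. Outside hypothalamus all their IPs lay above all inputs. None of the 28 had enough counts to be tested for the IP change within a tissue, and the difference between both sets was not tested.

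**Figure D5:**
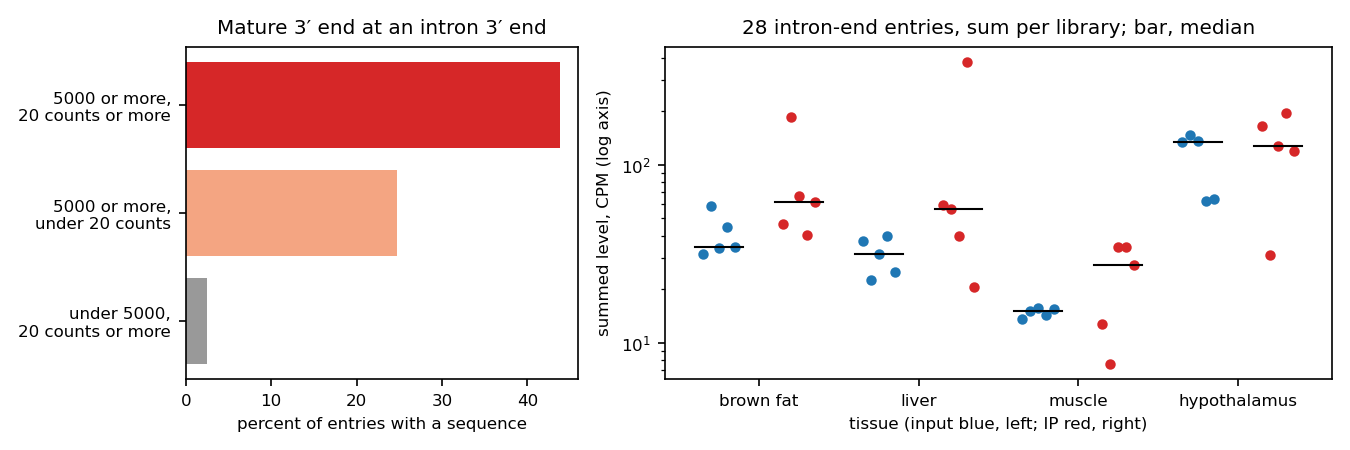
Left, percentage of entries with a sequence (horizontal axis) whose mature 3′ end lies within 3 bases of an intron 3′ end, for 3 sets of entries (vertical axis). Right, summed CPM of the 28 such high-numbered entries in each library on a log axis (vertical), with inputs in blue, IPs in red and the median as a bar, by tissue (horizontal). Bars stand at 43.75%, 24.72% and 2.478%, and input and IP points overlap in each tissue.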

How the data were processed

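The deposited table gives an expected count, an estimated count that need not be whole, for each of 1894 mature miRNA entries in 40 libraries; 18.92% of positive values were whole within 0.001. Per the submitters' processing notes the authors used fastp, STAR, featureCounts and the genome mm10; their versions, the strandedness and the handling of multi-mapped reads were not given in the sources used here. Per the labels, the libraries came from the NEBNext small RNA kit, and no molecular identifiers are named, so intervals cover counting error only. Groups, mice and pools are from the labels, and 0 columns had no sample.

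The entries and lists were chosen with earlier results of these data known. Counts were rounded (library totals changed by at most 0.127%) and tested over all entries in R 4.3.3 with edgeR 4.0.16 (filterByExpr by group, TMM scaling, quasi-likelihood test, Benjamini-Hochberg adjusted p under 0.05), checked on simulated counts: IP against input in each tissue (10 libraries), the difference of this change from brown fat (20 libraries), and each tissue's inputs against the mean of the other 3 (20 libraries). All tests are two-sided. Levels are CPM, the count per 1000000 counts of the library. Alternatives were RLE scaling, total count, no filter, a minimum mean of 10 CPM, DESeq2 1.42.0, the mouse as a replicate block, all 40 libraries, and each library left out. Inputs and IPs of the same number come from 1 mouse in 19 of 20 pairs by the labels (brown fat number 5 joins mice 8 and 10); within pairs the deviations from group means correlated from -0.12 to 0.70, with a median of 0.17. The text names the 20 entries of highest mean level, each entry called in any of the 11 comparisons, and those at the threshold of 20 counts; miR-5114 and hosts were named after their values were seen. Mature sequences and positions are from RefSeq GRCm38.p6 and gene features from GENCODE vM21. 10 entries, miR-5099 and miR-6540-5p among them, had no sequence in that table.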

Additional observations from a re-analysis of the deposited data

Results flagged for a closer look

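Within groups of 5, single libraries stood far from the others (gap over range above Dixon's 95% value) in 14 of the 70 groups with at least 20 counts of an entry. That value gives about 1 in 20 only for independent, normally spread levels. These low counts come from shared libraries, so the 14 cannot be set against that rate. Of the 14, 9 concern the least deep IP of their group. Liver IP 4 held 3912 CPM of miR-6236 (next 292), 2140 of miR-5119 (next 68.3), 815 of miR-6538 (next 59.1) and 252 of miR-6978-3p (next 42.7). Hypothalamus IP 4 held 977 CPM of miR-6236 (next 76.8), 804 of miR-6538 (next 149) and 587 of miR-5126 (next 89.9). Muscle IP 5 held 180 CPM of miR-6236 (next 53.4) and 121 of miR-5119 (next 36.8). Whether depth plays a part in these levels was not tested. In brown fat the least deep IP, IP 4 with 210603 counts, had the lowest summed level of the entries, 1415 CPM. The deepest brown fat IP, IP 1 with 817018 counts, lay close to it at 1425 CPM. Among inputs, liver input 2 held 28.03 CPM of miR-6236 (next 18.6) and hypothalamus input 4, which also holds muscle markers, 22.9 of miR-5100 (next 7.28). miR-7068-3p, at an intron end in Cherp, held 3.79 CPM in brown fat input 1 (next 6.48), 4.04 in muscle input 2 (next 3.55) and 10.3 in hypothalamus input 2 (next 2.77).

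The IP change differed between tissues for 8 entries by the interaction test (edgeR). Liver against brown fat gave -2.23 for miR-5099 and 3.55 for miR-6236. Muscle against brown fat gave -2.08 for miR-5100, 3.63 for miR-5119, 4.52 for miR-6538 and 4.63 for miR-6236. Hypothalamus against brown fat gave 3.33 for miR-5126, 4.32 for miR-5119, -1.44 for miR-5099 and fitted values of 4.64 for miR-6944-3p and 4.37 for miR-6540-5p, which rest on 0 counts in the brown fat IPs and are no bound.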

How the results depend on the processing

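Numbers of entries called, higher and then lower where both are given, moved as follows. With no filter they were 27 higher for the brown fat IP, 9 for liver, 9 and 1 for muscle, 12 and 5 for hypothalamus, 3 and 0 for the difference of liver from brown fat, 2 lower for that of muscle, and for the inputs 32 and 7 in hypothalamus, 10 and 10 in muscle, 10 and 5 in liver and 14 and 6 in brown fat. With a minimum mean of 10 CPM they were 8 higher for the liver IP, 10 and 2 for hypothalamus, 0 lower for the liver difference, and for the inputs 3 and 1 in hypothalamus, 0 higher in muscle, 1 and 0 in liver and 0 higher in brown fat. With all 40 libraries they were 10 higher for the liver IP, 8 for muscle, and 10 and 1 for hypothalamus. With total count scaling they were 1 higher for the hypothalamus IP, 0 and 3 for the hypothalamus difference, and for the inputs 0 lower in hypothalamus, 0 and 7 in muscle, 1 and 2 in liver and 4 and 1 in brown fat. RLE gave 0 lower for the liver and muscle differences and 1 and 2 for hypothalamus, and DESeq2 gave 2 higher for liver and 1 and 3 for hypothalamus. The replicate block (mouse) gave 3 higher for the liver difference, 2 lower for muscle and 2 lower for hypothalamus, and for the inputs 0 higher in brown fat and 1 and 0 in liver; of the called entries it changed no call other than those given in the report. More entries are tested without the filter and with the 10 CPM minimum in the IP comparisons, and other causes were not tested. The counts above lack the share over all entries tested, so they describe the settings alone. Calls over all entries moved with the scaling too. For the hypothalamus difference they were 136 higher and 9 lower in the main fit, 36 and 23 with RLE, and 13 and 29 with total count. For the muscle inputs they were 99 and 170 in the main fit and 26 and 364 with total count.

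Leaving out each library in turn gave 7 to 9 higher for the brown fat IP, 5 to 7 for liver, 3 to 7 for muscle and 2 to 5 for hypothalamus, with 0 lower in each. For the differences from brown fat it gave 0 to 1 higher and 0 to 1 lower in liver, 3 higher and 0 to 2 lower in muscle, and 0 to 4 higher and 0 to 6 lower in hypothalamus. For the inputs it gave 4 to 7 and 2 to 3 in hypothalamus, 0 to 1 and 4 to 6 in muscle, 2 to 4 and 1 to 2 in liver, and 1 to 4 and 2 to 4 in brown fat. The share over all entries in these fits is not given, so these counts describe the fits alone. Signs turned for miR-6540-5p in the hypothalamus IP (-0.66 with total count, -0.47 without the filter, -0.15 without hypothalamus input 3, up to 0.32 without another library), for miR-5126 in the hypothalamus difference (-0.77 to 3.47 over the fits without a library), for miR-5121 in the hypothalamus input (-0.65 without input 5, up to 2.51 without another library), for miR-5099 there (0.10 with total count) and for miR-7689-3p in the muscle input (-0.28 with total count). Against TMM, total count moved the median of all entries by -0.79 to -1.62 in the 4 IP comparisons and by -1.84 in muscle and 1.55 in hypothalamus inputs, and RLE by -0.18 to -0.90 in the IP comparisons.

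Depth limits most entries: 67 or more of the 74 could not be tested for an IP change, and a single count is a large level in the least deep IPs.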
